A study of Homo sapiens with 6 samples.

Results

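In a kinase-focused viability screen of 939 library siRNAs, 17 were directed against the kinases of the CLK, SRPK, DYRK and HIPK families and against PRPF4B, a related kinase of the spliceosome. A well was taken as a member when its locus identifier in the deposited table was that of 1 of the 17 genes, so no measured value entered the choice. All 17 were in the kinome library, in 1 well each: 4 against CLK1 to CLK4, 3 against SRPK1 to SRPK3, 5 against DYRK1A, DYRK1B and DYRK2 to DYRK4, 4 against HIPK1 to HIPK4, and 1 against PRPF4B. The table lists SRPK3 under its older symbol STK23 (locus 26576), and the current symbol of PRPF4B (locus 8899) is PRP4K. The screen used SUM149PT, a human cell line from an inflammatory breast cancer that lacks hormone receptors and HER2 amplification (TN-IBC). Cells (750 per condition) received 45 nM siRNA by reverse transfection, stood for 48 hours, and were then given 50 µM eicosapentaenoic acid (EPA, an omega-3 fatty acid; the labels call this dose the IC50) or left untreated, for 72 hours more. There were 3 EPA-treated and 3 untreated samples, called EPA replicates 4 to 6 and untreated replicates 1 to 3 after the numbering of the table. Viability was read as fluorescence of a resazurin dye, which metabolically active cells convert to a fluorescent product. The series' design text names the purpose as finding a druggable gene whose knockdown adds to the antitumour effect of EPA.

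These kinases belong to the CMGC group, named after the CDK, MAPK, GSK3 and CLK families. SRPK and CLK kinases phosphorylate SR proteins, the serine- and arginine-rich factors that help choose splice sites: SRPKs act mainly in the cytoplasm and promote import of SR proteins into the nucleus, and CLKs act in the nucleus, where they release SR proteins from nuclear speckles. PRPF4B is a kinase of the spliceosome itself. DYRK kinases phosphorylate their own activation-loop tyrosine during synthesis and then act on serine and threonine in substrates that include cell cycle regulators, and HIPK kinases are relatives best known for control of transcription factors and corepressors. The effect of the siRNAs on their transcripts or proteins was not measured here. The siRNA sequences were not used here, and each gene has a single catalogue number and a single well, so no second reagent against the same gene is at hand.

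Controls set the scale on which the members are read. Wells of OTP3, the negative control siRNA, averaged 24974 ± 2908 fluorescence units with EPA and 49202 ± 1292 without (SD, n = 3 each), so 50.8% of the signal was left. Blank wells read 3888 ± 28.9 with EPA and 3738 ± 40.5 without, and this level was not subtracted from the deposited values. TOX, the positive control siRNA, read 3989 ± 276 with EPA and 6301 ± 3418 without, near the blank level with EPA. By the median over wells TOX read 3834 ± 123 with EPA and 4539 ± 277 without, so the untreated mean lay well above the typical TOX well. For each of these 3 controls the samples of both groups did not overlap (two-sided exact permutation test, p = 0.1, and 3 samples against 3 can give no smaller value).

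For the comparison of EPA-treated with untreated cells, each well was set on a log2 scale relative to the median library well of its plate and sample. A negative difference means that the ratio of a well to that median signal was lower with EPA than without. Of the 17 siRNAs 3 were lower with EPA, those against DYRK1B, SRPK3 and PRPF4B, and 7 were higher, those against HIPK4, HIPK2, CLK2, DYRK2, DYRK1A, CLK3 and CLK1 (limma, adjusted p under 0.05). The 3 lower calls are 17.6% of the 17 siRNAs, beside 15.2% of all 939 library siRNAs called lower. The 7 higher calls are 41.2%, beside 29.0% of all library siRNAs called higher. The lower share is thus close to the background of the screen. The median difference of the 17 was 0.09, against 0.20 for all library siRNAs, so the median siRNA itself lay above 0 on this scale. Centred on the median siRNA of each plate, CLK1, CLK3 and DYRK2 were no longer called higher (limma adjusted p = 0.137, 0.0795 and 0.0577). For the same 10 siRNAs, and for no other of the 17, the 3 EPA-treated log2 values did not overlap the 3 untreated ones (3 lower and 7 higher, where 18.8% and 36.0% of the library did not overlap in those directions).

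The share of signal left in wells of cells alone differed between the plate rows that hold the 17 siRNAs, from 28.0% in row 11 of plate 3 to 80.8% in row 16 of plate 1, so the calls were also made after median polish, which removes row and column medians from each plate. In that fit 4 of the 17 were lower, DYRK1B, SRPK3, PRPF4B and HIPK3, where 14.1% of the library was lower. Another 4 were higher, DYRK1A, HIPK4, CLK2 and CLK3, where 16.3% of the library was higher. CLK1, DYRK2 and HIPK2 were thus no longer called, and HIPK3 was.

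The DYRK family held the siRNA with the most negative EPA difference of the 17. DYRK1B, also known as MIRK, is a kinase associated with quiescence and survival of tumour cells. Its well read 5275, 6225 and 5649 units with EPA, against 22733, 29736 and 27033 units without. All 3 EPA-treated values lay far below all 3 untreated values, and 21.6% ± 1.96 (SE) of the signal was left. The log2 difference relative to the plate was -1.52 (SE 0.181, limma adjusted p = 0.000372), the 16th lowest of 939. Without EPA the DYRK1B well was at 0.13 from the plate's library median (adjusted p = 0.395), so the siRNA alone did not differ detectably from the typical library siRNA. With EPA it stood at -1.40 (SE 0.128, adjusted p = 4.24e-06). The EPA reading was closer to the blank wells of plate 1 (3891) than to the plate's library median (15046), so the size of the difference depends on the background: after blank subtraction 8.04% of the signal was left and the log2 difference was -2.78. The call held in all 18 alternatives, with adjusted p from 3.46e-05 to 0.0031.

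DYRK1A, the closest relative of DYRK1B and a kinase whose extra gene copy is linked to Down syndrome, went the other way. Its well, 2 columns from that of DYRK1B in row 12 of plate 1, read 37247, 34807 and 32796 units with EPA, against 41586, 36252 and 39304 units without. The raw values of the groups overlapped, and 89.5% ± 4.84 (SE) of the signal was left. Relative to the plate this was a gain of 0.52 (SE 0.115, limma adjusted p = 0.00541). The DYRK1A well was among the bright ones in both conditions, at 1.22 from the library median with EPA and at 0.69 without. In wells of cells alone in the same plate row 43.8% of the signal was left, between the shares of both DYRK1 wells. Among the 19 library wells that shared the row with DYRK1B the share left ran from 20.5% to 96.7%, with a median of 62.8%, and 1 of them kept less than DYRK1B did. The part of plate position in these results was not tested beyond the corrections named here. Quantile normalization was the 1 of 18 alternatives in which DYRK1A was no longer called (0.20, adjusted p = 0.245).

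DYRK2 was higher with EPA, and DYRK3 and DYRK4 did not pass the test. DYRK2, which also serves as a scaffold of a ubiquitin ligase complex, read 16604, 17395 and 15412 units with EPA and 18016, 15863 and 19237 units without. Its 93.0% ± 6.12 (SE) of signal left gave a difference of 0.58 (SE 0.16, limma adjusted p = 0.015), and after median polish it was 0.20 (adjusted p = 0.284). The DYRK2 call was also lost with centring on the median siRNA (adjusted p = 0.0577), with blank subtraction and median polish (adjusted p = 0.163), and without untreated replicate 2 (adjusted p = 0.0583) or without EPA replicate 5 (adjusted p = 0.0545). DYRK3, a kinase that dissolves stress granules and other condensates, had 11216, 12124 and 10717 units with EPA and 18948, 17899 and 17350 units without. Here the EPA-treated samples were all dimmer than the untreated ones, with 62.8% ± 2.80 of the signal left, beside a median of 68.6% over all library siRNAs. The difference relative to the plate's median signal was 0.01 (limma adjusted p = 0.951). DYRK4, a testis-enriched and little studied member, read 24047, 15448 and 17417 units with EPA and 31148, 28808 and 30988 units without. Its difference was -0.02 (adjusted p = 0.936), with 62.6% ± 8.72 left.

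Among the kinases of SR proteins, SRPK3 stood apart from SRPK1 and SRPK2. SRPK3 is the muscle-enriched member of the family. Its well read 4565, 4387 and 3812 units with EPA, against 23315, 15675 and 13332 units without. The groups did not overlap. The EPA-treated values were near the level of blank wells: 2 of the 3, and their mean of 4255, were under the mean plus 3 SDs of the blank wells of that plate (4428), and EPA replicate 4 was above it. The log2 difference was -1.19 (SE 0.198, limma adjusted p = 0.00162), the 31st lowest of 939, and the call held in all 18 alternatives (adjusted p from 0.00011 to 0.00973). As deposited 24.4% ± 4.41 (SE) of the signal was left, and 2.69% after blank subtraction.

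The SRPK3 well sat in row 13 of plate 3 among 10 wells that had no siRNA, and these wells also lost much of their signal. In those 10 wells a median of 29.0% was left, from 21.7% to 62.8%, so as deposited the share left under SRPK3 siRNA lay within their range. After blank subtraction the mean of the 10 wells kept 26.4% and the SRPK3 well 2.69%. The part of this well position in the SRPK3 result was not tested. The no-siRNA wells on either side read 11078, 10462 and 8831 units (column 16) and 14799, 4061 and 9784 units (column 18) with EPA. In EPA replicate 5 the well of column 18 was thus below the SRPK3 well, and in the other replicates both neighbours were above it. Among the 9 other library wells of the row the share left ran from 30.3% to 100.7%, all above SRPK3.

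SRPK1 and SRPK2, the broadly expressed kinases of the family, gave dim wells in both conditions. SRPK1 read 7740, 10231 and 9462 units with EPA and 14548, 10967 and 14786 units without. SRPK2 read 7004, 9111 and 7716 units with EPA and 15637, 18521 and 12434 units without. In both wells every EPA-treated sample was dimmer than every untreated one, and 68.1% ± 8.32 (SE) of the signal was left under SRPK1 siRNA and 51.1% ± 7.03 under SRPK2 siRNA. Neither difference passed the test: SRPK1 was at 0.26 (SE 0.178, limma adjusted p = 0.256) and SRPK2 at -0.15 (SE 0.213, adjusted p = 0.592). Both wells shared row 11 of plate 3, where the 1 well of cells alone kept 28.0%, OTP3 wells 33.8% and the 1 well without siRNA 59.5%. The other library wells of the row kept a median of 63.6% beside SRPK1 and 66.8% beside SRPK2.

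PRPF4B is the spliceosomal kinase of the set. Its well, in row 12 of plate 2, read 8059, 6571 and 6202 units with EPA, against 21661, 14549 and 23528 units without. The groups did not overlap, with 34.9% ± 5.57 (SE) of the signal left. The log2 difference was -0.76 (SE 0.186, limma adjusted p = 0.00895), the 86th lowest of 939. The call depended on what the well was set against. Cells alone in that row kept 37.7%, close to the PRPF4B well, and the median of the other library wells of the row kept 50.4%. Centred on the library wells of its row the difference was -0.32 (adjusted p = 0.184), and centred on OTP3 it was -0.24 (adjusted p = 0.352). After blank subtraction 18.8% was left under PRPF4B siRNA and 32.5% in cells alone of the row.

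The CLK siRNAs lay at the upper side of the plate. CLK2, a nuclear kinase of SR proteins, had 36798, 41948 and 45743 units with EPA and 46434, 41999 and 44017 units without. The raw groups overlapped, and 94.0% ± 6.47 (SE) of the signal was left, against 63.0% in cells alone of its row and a median of 71.7% in the row's other library wells. The plate-relative difference was 0.59 (SE 0.149, limma adjusted p = 0.0104). It stood at 0.64 after median polish and at 0.19 after quantile normalization, where it was not called (adjusted p = 0.308), nor was it called with blank subtraction and median polish (adjusted p = 0.0887). CLK3 read 31153, 20395 and 22999 units with EPA and 27924, 25546 and 29773 units without. In raw units its EPA replicates spread more than those of CLK2 (SD 5613 against 4490 units). On the tested log2 scale they spread less, at 0.90, 0.52 and 0.70 against 1.14, 1.56 and 1.69. The CLK3 difference was 0.50 (SE 0.147, limma adjusted p = 0.019), and its call held in 12 of 18 alternatives. The CLK3 call was lost with centring on the median siRNA (adjusted p = 0.0795), blank subtraction with median polish (0.107), row centring (0.0955) and quantile normalization (0.0618), at the threshold of 0.01, and without untreated replicate 2 (0.0734).

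CLK1, whose own transcript is a known target of its splicing activity, read 22911, 22904 and 23498 units with EPA and 29448, 27240 and 26559 units without. These groups did not overlap, yet the loss was smaller than that of the typical well, with 83.3% ± 2.71 (SE) left and a difference of 0.42 (SE 0.136, limma adjusted p = 0.0303). The CLK1 call was lost without untreated replicate 2 or 3 or EPA replicate 5 or 6 (adjusted p from 0.0808 to 0.0897), and after median polish the value was -0.00098. Centred on the median siRNA it was 0.28 and not called (limma adjusted p = 0.137). The call was also lost with row centring (0.0771), with quantile normalization (0.0938), with blank subtraction and median polish, and at the threshold of 0.01. The CLK1 call held in 8 of 18 alternatives. CLK4, the closest relative of CLK1, read 23368, 22611 and 18565 units with EPA and 31535, 33435 and 35593 units without. It kept 64.2% ± 4.98, and its difference was 0.04 (adjusted p = 0.828).

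The HIPK wells lay in plate row 14 and at the plate's lower edge. HIPK4, a mainly cytoplasmic member that is needed for sperm formation in mice, had 42598, 28789 and 34925 units with EPA and 27133, 32119 and 36485 units without. It was the member with the highest share left, 111.0% ± 15.7 (SE), and the raw groups overlapped. The plate-relative difference was 0.83 (SE 0.151, limma adjusted p = 0.00245), the 39th highest of 939, and it was called in all 17 alternatives that kept the well (adjusted p from 3.03e-05 to 0.0297). Its well was in row 16, where cells alone kept 80.8% and the other library wells a median of 73.5%. After median polish the difference was 0.68.

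HIPK3, which shares row 16 of plate 1 with HIPK4, read 9335, 8908 and 7211 units with EPA and 12934, 18062 and 20106 units without. It kept 49.8% ± 7.31 (SE), and each of the 19 other library wells of the row kept more. Relative to the whole plate the difference was -0.31 (SE 0.195, limma adjusted p = 0.225). Relative to its row it was -0.54 (adjusted p = 0.0304), after median polish -0.996 (adjusted p = 0.00179), and after blank subtraction with median polish -1.66 (adjusted p = 0.00921). Whether HIPK3 was called lower thus depended on correcting for plate position.

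HIPK2, a nuclear kinase active in the DNA damage response, read 38670, 30218 and 27913 units with EPA and 29772, 33637 and 36253 units without. With 97.1% ± 11.3 (SE) left, its difference was 0.63 (SE 0.13, limma adjusted p = 0.00419). The well was in column 24, the last of the plate, and after median polish the difference was 0.35 (adjusted p = 0.105), or 0.42 with blank subtraction too (adjusted p = 0.148). HIPK1, the closest relative of HIPK2, read 25432, 25973 and 26576 units with EPA and 39536, 42300 and 36485 units without. These groups did not overlap in raw units, but 65.9% ± 2.93 left was close to the library median, and the difference was 0.09 (adjusted p = 0.606).

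In raw fluorescence, 11 of the 17 wells (64.7%) had all 3 EPA-treated values below all 3 untreated values, against 61.7% of the library, and none had them all above. The 6 that did not were CLK2, CLK3, DYRK1A, DYRK2, HIPK2 and HIPK4. Over the 17 the share of signal left had a median of 65.9%, against 68.6% for all library siRNAs, and ran from 21.6% (DYRK1B) to 111.0% (HIPK4).

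Close relatives, 6 pairs in all, were compared directly by the log2 gap between their wells in each sample, which cancels what the wells of 1 plate share. The gap DYRK1B minus DYRK1A was -2.61 ± 0.181 with EPA and -0.57 ± 0.294 without (SD, n = 3 each), so it moved by -2.05 (SE 0.199). With all 3 EPA-treated gaps below all 3 untreated ones, the exact permutation p was 0.1, the smallest that this design allows, and 0.15 adjusted over the 6 pairs. DYRK3 minus DYRK2 moved by -0.57 (SE 0.0965), HIPK2 minus HIPK1 by 0.55 (SE 0.201) and CLK4 minus CLK1 by -0.38 (SE 0.149), each with no overlap between the groups and the same exact p values. The CLK4 and CLK1 wells lay in different rows, and after median polish their gap moved by 0.32, in the opposite direction. After median polish the gap DYRK3 minus DYRK2 moved by -0.095 and the gap HIPK2 minus HIPK1 by 0.26. SRPK2 minus SRPK1 moved by -0.41 (SE 0.298, exact p = 0.3, adjusted 0.36), and CLK3 minus CLK2 by -0.09 (SE 0.265, exact p = 1), with overlapping groups. With these errors, a p that misses the threshold does not show that the wells of a pair responded alike.

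Without EPA, the question was which siRNAs gave a lower or higher signal than the typical library siRNA. Set against the plate's library median, 6 of the 17 were lower (35.3%, beside 35.6% of the library) and 7 were higher (41.2%, beside 33.9%). SRPK1 was the lowest, at -0.59 (SE 0.126, limma adjusted p = 0.00183), followed by HIPK3 (-0.53), DYRK2 (-0.45), DYRK3 (-0.42), SRPK2 (-0.39) and PRPF4B (-0.33). CLK2 was the highest, at 0.87 (SE 0.105, adjusted p = 4.4e-05), followed by HIPK1 (0.71), DYRK1A (0.69), CLK4 (0.47), HIPK2 (0.46), HIPK4 (0.39) and DYRK4 (0.33). SRPK3 (-0.24), DYRK1B (0.13), CLK3 (0.20) and CLK1 (0.20) did not pass. By family, 0 of 4 CLK, 2 of 3 SRPK, 2 of 5 DYRK and 1 of 4 HIPK wells were lower, and after median polish 0 of 4 CLK, 0 of 3 SRPK, 1 of 5 DYRK and 3 of 4 HIPK wells. After median polish 27.8% of the library was lower and 26.0% was higher. The PRPF4B call was lost on leaving out any 1 replicate except untreated replicate 3 (adjusted p up to 0.317, without untreated replicate 2). The SRPK2 call was lost without untreated replicate 1 or 3 or EPA replicate 5 or 6 (adjusted p up to 0.303). The HIPK3 call was lost without untreated replicate 1 (adjusted p = 0.0551), HIPK4 without untreated replicate 3 (0.0745), and DYRK4 without untreated replicate 1 or 3 (0.0776 and 0.0904), while SRPK3 passed without untreated replicate 1 (-0.42, adjusted p = 0.0257). SRPK1 and SRPK2 shared a dim plate row, and after median polish they stood at -0.079 and 0.13 and neither passed. In that fit DYRK2 (-0.024, limma adjusted p = 0.852) and PRPF4B (-0.14, adjusted p = 0.353) did not pass either, while DYRK3 (-0.67) and HIPK3 (-0.92) were still lower. Of the 7 higher wells DYRK1A (0.84) alone was still higher after median polish, and CLK1 (0.34) passed as well. CLK2 (0.33, adjusted p = 0.0504), CLK4 (0.16), HIPK1 (0.23) and DYRK4 (0.00074) no longer passed, and HIPK2 (-0.34, adjusted p = 0.0188) and HIPK4 (-0.27, adjusted p = 0.0443) passed as lower.

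The library as a whole read well below the negative control, and the same wells take another place when OTP3 is the zero. Centred on the median OTP3 well of the plate, 16 of the 17 were lower without EPA (91.8% of the library was lower) and 0 were higher (0.532% of the library). The exception was CLK2, at -0.21 (limma adjusted p = 0.154). In percent of OTP3, the untreated wells ran from 29.5% ± 2.52 for SRPK1 to 86.6% ± 4.91 for CLK2 (SD, n = 3). SRPK2 (34.9% ± 9.79), DYRK2 (34.7% ± 2.29), DYRK3 (35.5% ± 2.54), HIPK3 (33.3% ± 6.67), PRPF4B (37.7% ± 8.10) and SRPK3 (38.7% ± 11.5) came next. Each of these means was closer to that of SRPK3 than the SD of SRPK3, whose replicates spread most. The DYRK2 and DYRK3 means lay more than 2 SDs of SRPK1 above that of SRPK1, but the wells were on different plates (plate 1 and plate 3). This order depended on plate position. After median polish the untreated values were -0.079 for SRPK1, -0.024 for DYRK2 and -0.67 for DYRK3, so SRPK1 was then above DYRK3. CLK1 (54.5% ± 4.25), CLK3 (54.3% ± 2.41) and DYRK1B (52.0% ± 7.52) formed the middle, with DYRK4 at 59.4% ± 2.06, HIPK4 at 62.4% ± 7.69, HIPK2 at 65.1% ± 5.19 and CLK4 at 65.7% ± 2.71. DYRK1A (76.5% ± 5.18) and HIPK1 (77.5% ± 8.41) were nearest to CLK2.

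With EPA, 7 of the 17 were lower than the plate's library median (41.2%, beside 37.0% of the library) and 9 were higher (52.9%, beside 36.4%). The lower ones were SRPK3 (-1.43), DYRK1B (-1.40), PRPF4B (-1.10), HIPK3 (-0.83), SRPK2 (-0.53), DYRK3 (-0.40) and SRPK1 (-0.33). The higher ones were CLK2 (1.46), HIPK4 (1.22), DYRK1A (1.22), HIPK2 (1.09), HIPK1 (0.79), CLK3 (0.70), CLK1 (0.62), CLK4 (0.51) and DYRK4 (0.31), and DYRK2 (0.13, limma adjusted p = 0.306) did not pass. All 4 CLK wells were thus higher and all 3 SRPK wells lower, and after median polish the 4 CLK wells were still called higher while SRPK1 (0.093) and SRPK2 (0.028) were no longer called. With row centring CLK4 was not called (0.28, limma adjusted p = 0.0631). Centred on OTP3, CLK2 was the only CLK well called higher. After median polish 30.1% of the library was lower and 30.4% was higher. In the HIPK family median polish ended the call of HIPK2 (0.014, adjusted p = 0.93), and HIPK4 stood at 0.41 and HIPK1 at 0.33, both still higher. DYRK4 (-0.16) was no longer called either. SRPK1 was lost without EPA replicate 4 or 5 (adjusted p = 0.229 and 0.0604), SRPK2 without EPA replicate 4 (0.0654) and DYRK4 without EPA replicate 4 or 6 (0.124 and 0.0583).

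Relative to OTP3, 9 of the 17 were lower with EPA (64.7% of the library) and 4 were higher (13.5% of the library), namely CLK2, HIPK4, DYRK1A and HIPK2. Their wells read 176% ± 53.7, 144% ± 10.03, 146% ± 30.9 and 132% ± 19.1 of OTP3 (SD, n = 3), and each was above the OTP3 median in all 3 EPA-treated samples. In the same wells 0 of 3 untreated samples were above OTP3. Rows 12, 14 and 16, which hold DYRK1A, HIPK2 and HIPK4, had no OTP3 well. In the row of HIPK4 the wells of cells alone averaged 48533 units with EPA, above both the HIPK4 well (35437) and the plate's OTP3 median (24811). In the row of CLK2 cells alone read 31516 units with EPA and in the row of HIPK2 26540, also above that OTP3 median, and in the row of DYRK1A 22201, below it. At the other end SRPK3 read 21.7% ± 2.22, DYRK1B 24.3% ± 7.68, PRPF4B 31.4% ± 2.59, HIPK3 35.4% ± 8.86 and SRPK2 40.7% ± 8.17 of OTP3. The OTP3 wells of a plate lay in 8 of its 16 rows and their level differed more between the EPA-treated samples than between the untreated ones (SD 2908 against 1292 units over all plates).

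Other kinases of the same group gave a comparison. Of 47 other CMGC kinases (CDK, MAPK, GSK3, casein kinase 2 and related genes), 45 were measured, and 6 were lower and 14 higher with EPA than without (13.3% and 31.1%), with a median difference of 0.14. Of 10 other genes of kinases that act on splicing or its factors, 9 were measured in 10 wells, and 0 wells were lower and 1 was higher, with differences from -0.17 to 0.64. DYRK1B, SRPK3 and PRPF4B were all below that range, but they are named because they were called lower in these same data, so this is no separate support. Of 8 kinases that act after DYRK priming or beside HIPK2 in the DNA damage response, 2 were lower and 2 higher, with a median of -0.20. Over all library siRNAs, 15.2% were lower and 29.0% higher. The lists overlap, so their counts are not separate: several CDK genes are in both the CMGC and the splicing list, and GSK3A and GSK3B in both the CMGC and the DYRK priming list. No test was made between these lists and the 17 siRNAs.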

How the data were processed

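Per the file headers, the deposited values are raw fluorescence intensity, 1 per well and sample, on 3 plate layouts of 16 rows and 24 columns. Any correction by the authors is not given in the sources used here. The 6 columns carry a group and a running number, so each was assigned to a group only. No source says whether the samples were separate cultures, so p-values reflect variation among these 6 readings alone, perhaps technical. Members were matched by locus identifier, with symbols updated from RefSeq (GRCh38.p14; 933 of 939 library wells matched). The members, lists and tests were chosen with earlier results of these data known, and every member is named.

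Each fluorescence value was divided by its plate's median library well in that sample. The log2 of this ratio was analysed without a pseudocount or filter. limma 3.58.1 in R 4.3.3 (trend and robust options) fitted group means to all 939 library wells, with two-sided tests and Benjamini-Hochberg adjustment over all wells at 0.05. Single values were compared by exact permutation tests (scipy 1.17.1). Percent of signal left is the EPA-treated mean over the untreated mean. Tested on data simulated from these 939 wells for EPA-treated minus untreated, the fit found 92.5% of the siRNAs set to -1 and 90% of those set to 1 (log2). It found 50% of those set to -0.5 and 35% of those set to 0.5. Among its 152 calls on the simulated data, 5 (3.29%) fell on siRNAs simulated without a difference. The screen itself gave 143 lower and 272 higher calls. These simulated shares thus do not give the share of false calls in the screen, which was not measured. Having 3 samples per group limits precision, as does closeness to the blank level. Alternatives were centring on OTP3, on the median siRNA or on the plate row, blank subtraction (floored at 3 blank-well SDs), median polish, both together, omission of outer wells (rows 1 and 16, columns 1, 2, 23 and 24), quantile normalization, a linear scale, plain variances, a filter that left out wells under 2 TOX means in both groups, a threshold of 0.01, and omission of each replicate.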

Additional observations from a re-analysis of the deposited data

How the results depend on the processing

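DYRK1B and SRPK3 were lower with EPA than without in all 18 alternatives, and HIPK4 was higher in all 17 that kept its well. Of the 17 siRNAs, 3 stayed the lower count on leaving out any 1 replicate, and the higher count ran from 4 (without untreated replicate 2) to 7. No paired analysis was possible because the columns of the table carry no replicate number of the labels. Centring on the median siRNA applies to the difference between the groups only. Leaving out outer wells removed 5 of the 17 (CLK2, DYRK3, HIPK2, HIPK3, HIPK4), and the low-signal filter removed none. Wells near the blank level, such as SRPK3 and DYRK1B with EPA, limit the size of a log2 difference. The cause of the changes that follow was not tested.

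For EPA-treated minus untreated, the higher count of the 17 was 4 with centring on the median siRNA and 4 after median polish. It was 3 with quantile normalization, 3 at a threshold of 0.01 and 2 with blank subtraction and median polish. Without outer wells it was 4 of the 12 kept, namely CLK1, CLK3, DYRK1A and DYRK2. The wells of CLK2, HIPK2 and HIPK4 were left out of that fit, so their calls were not tested there. Over all siRNAs, OTP3 centring gave 59 lower and 546 higher, and the higher count was 131 with centring on the median siRNA, 153 after median polish, 125 with blank subtraction too and 135 at 0.01, against 143 lower and 272 higher as reported. OTP3 centring also made SRPK1 (0.65) and HIPK1 (0.47) pass as higher. CLK1 reversed to -0.00098 after median polish and -0.0632 with blank subtraction too. The pair CLK4 minus CLK1 reversed to 0.32 and 0.58 in those 2 fits. The pair CLK3 minus CLK2 reversed to 0.0059 with row centring, and ran from -0.345 to 0.056 on leaving out 1 replicate.

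Against the library without EPA, OTP3 centring gave 16 lower and 0 higher of the 17, and 862 and 5 of all siRNAs. It reversed CLK1 (-0.88), CLK2 (-0.21), CLK3 (-0.88), CLK4 (-0.61), DYRK1A (-0.39), DYRK1B (-0.95), DYRK4 (-0.75), HIPK1 (-0.37), HIPK2 (-0.62) and HIPK4 (-0.69). Blank subtraction with median polish gave 3 lower and 2 higher of the 17, and 215 and 207 of all siRNAs. Median polish gave 2 higher of the 17, row centring 3, and the fit without outer wells 2 lower of the 12 kept. SRPK2 reversed to 0.13 after median polish and 0.16 with blank subtraction too, HIPK2 to -0.34 and -0.40, and HIPK4 to -0.27 and -0.28, and to -0.21 with row centring.

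Against the library with EPA, OTP3 centring gave 4 higher of the 17, and 608 lower and 127 higher of all siRNAs. It reversed CLK1 (-0.072), CLK4 (-0.18), DYRK2 (-0.56) and DYRK4 (-0.38). Row centring gave 4 lower of the 17 and the fit without outer wells 3 of the 12 kept. After median polish, and with blank subtraction too, SRPK1 reversed to 0.093 and 0.19 (0.15 with row centring), SRPK2 to 0.028 and 0.083, and DYRK4 to -0.16 and -0.29.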
